A study of Mus musculus with 24 samples.

Results

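The genes described here are the classical effector cytokines of invariant natural killer T (iNKT) cells: Ifng, Tnf, Il2 and Csf2, Il4, Il13 and Il5, and Il17a. They were chosen by name, as 8 of the 55401 genes in the count tables, and each of them has an entry there and in the gene annotation. LiNKT cells are the iNKT cells that reside in the liver. They were sorted from NOD/ShiLtJ mice as live TCRβint cells binding αGalCer/CD1d tetramers, either without treatment or after injection of αGalCer/CD1d-NPs, iron oxide particles that carry CD1d loaded with the glycolipid αGalCer. The study annotates its sub-cluster 5, which untreated cells lack, as LiNKTR1 cells. The comparisons below ask what this treatment leaves of the cytokine genes that LiNKT cells are known for, in RNA and in DNA methylation. Their chromatin is described too, but not by treatment, because the sources used here do not say which nuclei come from treated mice.

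NOD/ShiLtJ is an inbred strain in which autoimmune diabetes arises spontaneously, and the labels name no transgene or deletion in any group. Treatment started at 8 to 10 weeks of age and consisted of 20 µg per dose, 2 doses per week, for 5 weeks, with cells taken 2 to 3 days after the last dose. SmartSeq2, which reads full-length RNA of cells sorted singly into wells, was done on cells of 3 untreated and 3 treated male mice of 13 to 15 weeks. Whole genome bisulfite sequencing used cells of 7 untreated female mice of 17 weeks and of 4 treated mice of 16 weeks, whose sex is not given in the sources used here, so that treatment, age and sex cannot be told apart there. The multiome, which reads RNA and open chromatin from the same nuclei, used 5 untreated and 4 treated male mice of 13 to 15 weeks. Each group is 1 sample in each kind of data, because the mice of a group are not separated and the replicates that the study describes for methylation are merged into 1 value per group in the tables, and no difference between groups could be tested. Intervals are 95% intervals (exact Poisson for summed counts, exact binomial for shares) and cover counting error only, since a SmartSeq2 count is a read and not a molecule.

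By way of background, iNKT cells recognise lipids on CD1d and are unusual among T cells in that they transcribe cytokine genes at rest, which allows them to secrete IFN-γ and IL-4 shortly after they meet antigen. IFN-γ, made from Ifng under the control of T-bet, activates macrophages and NK cells. Il4, Il13 and Il5 sit side by side with Rad50 on chromosome 11 and are regulated together in type 2 cells, in which introns of Rad50 hold a locus control region and the interval between Il4 and Il13 holds a conserved enhancer. Methylation of CpGs, the dinucleotides at which mammalian DNA is mostly methylated, is typically low at active promoters and enhancers, and transposase insertions are dense where chromatin is open.

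Sequence helps to read the methylation results. The Ifng promoter (250 bases before to 50 after the RefSeq start, chr10:118440796-118441095, GRCm38.p6, plus strand) held 7 CpGs, the median over 32851 such promoters, and the last 3 of them lay in a region with lower methylation in treated mice. It is shown with its CpGs in capitals.
Ifng promoter: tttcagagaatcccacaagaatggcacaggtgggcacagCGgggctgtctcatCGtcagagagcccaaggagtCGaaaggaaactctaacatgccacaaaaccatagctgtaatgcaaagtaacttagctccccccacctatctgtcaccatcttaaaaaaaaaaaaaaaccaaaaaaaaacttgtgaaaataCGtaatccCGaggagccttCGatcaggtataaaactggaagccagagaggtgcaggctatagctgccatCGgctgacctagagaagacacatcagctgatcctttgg
The second stretch is the whole of the region between Il4 and Il13 that was hypo-methylated in treated mice (chr11:53626960-53627252, plus strand), again with its 11 CpGs in capitals.
Il4 to Il13 region: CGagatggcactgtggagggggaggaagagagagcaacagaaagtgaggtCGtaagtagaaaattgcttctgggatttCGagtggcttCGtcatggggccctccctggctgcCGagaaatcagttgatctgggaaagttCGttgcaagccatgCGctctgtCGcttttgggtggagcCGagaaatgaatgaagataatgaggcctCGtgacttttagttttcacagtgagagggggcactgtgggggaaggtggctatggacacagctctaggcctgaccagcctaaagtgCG
Last come the first 300 bases (chr11:53598153-53598452, plus strand, 5 CpGs in capitals) of the region in Kif3a that was hyper-methylated instead.
Kif3a region: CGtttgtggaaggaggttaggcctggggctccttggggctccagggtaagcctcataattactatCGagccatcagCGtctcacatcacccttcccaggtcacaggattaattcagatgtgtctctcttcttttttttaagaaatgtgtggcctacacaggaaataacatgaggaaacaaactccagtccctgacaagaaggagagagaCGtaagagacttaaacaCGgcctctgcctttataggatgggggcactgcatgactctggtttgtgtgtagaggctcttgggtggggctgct
The sequences are from RefSeq, and the methylation of these stretches is described below.

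The promoters of Il4 and Il5 are shown because one belongs to a cytokine read in sub-clusters 2 and 5 but not in sub-cluster 4, and the other to the cytokine whose chromatin differed most between the barcode endings described below. Capitals mark GGAAA on either strand, the core of the site bound by NFAT, the factor that couples TCR signals to cytokine transcription. The Il4 promoter (chr11:53618616-53618915, minus strand) had 5 matches.
Il4 promoter: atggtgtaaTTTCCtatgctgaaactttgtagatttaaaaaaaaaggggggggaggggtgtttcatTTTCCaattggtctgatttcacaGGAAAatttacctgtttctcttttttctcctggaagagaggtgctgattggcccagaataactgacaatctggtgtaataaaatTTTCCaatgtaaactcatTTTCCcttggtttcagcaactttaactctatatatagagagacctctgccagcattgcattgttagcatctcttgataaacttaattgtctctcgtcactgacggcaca
The Il5 promoter (chr11:53720544-53720843, plus strand) had 2 matches.
Il5 promoter: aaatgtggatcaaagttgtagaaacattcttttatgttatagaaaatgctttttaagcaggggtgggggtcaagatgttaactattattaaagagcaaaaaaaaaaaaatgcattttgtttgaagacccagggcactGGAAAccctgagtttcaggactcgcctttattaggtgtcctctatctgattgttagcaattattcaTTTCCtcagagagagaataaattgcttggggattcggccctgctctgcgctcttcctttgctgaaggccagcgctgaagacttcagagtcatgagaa
Of the other members, Il13 had 4 matches, Tnf and Csf2 3 each, Il2 2, Ifng 1 and Il17a 0, and 61.3% of all promoters of this length held at least 1. TGANTCA, the AP-1 site, was found in the Il17a promoter alone among the 8 (7.81% of all promoters). AGATAA, a form of the GATA site, was found in those of Il13 and Csf2 (11.2% of all promoters). The Csf2 stretch (chr11:54249850-54250149, minus strand) follows the RefSeq start and lies wholly upstream of the annotated TSS (54249667) used for its chromatin. Its motif matches therefore do not describe the promoter at that TSS. CpGs were few in most of these promoters, from 2 in Il4 and Il2 to 11 in Tnf.

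Of the cells in the count tables, 273 of 284 untreated and 251 of 282 treated cells are listed with a sub-cluster in the study's cell list and were used, with medians of 635257 and 599896 reads per cell and 861 and 850 genes. At least 1 of the 6 iNKT and T cell markers (Cd3e, Cd3d, Cd3g, Trac, Zbtb16, Cd28) was read in 99.3% of untreated and 94.8% of treated cells. Single markers were read in fewer cells (Cd3d in 170 untreated and 148 treated cells, Cd28 in 33 and 28). A cell without reads of a gene may therefore still transcribe it, and the shares below are of cells with reads. All 4 hepatocyte markers (Alb, Apoa1, Ttr, Serpina1a) were at 0 in untreated cells and summed to 82.3 CPM (counts per 1000000) in 3 treated cells. Neutrophil markers (S100a8, S100a9) were at 0 in both, and of the B cell markers Cd79b and Ms4a1 were at 0 in both and Cd79a had reads in 1 untreated cell. Mcpt4 and Fcer1a were at 0 in both groups, and the 4 mast cell and basophil markers summed to 0.209 and 0.832 CPM. Macrophage markers (Lyz2, C1qa, Csf1r) moved with the group, from a sum of 0.0116 CPM in 2 untreated cells to 1793 CPM in 11 treated cells. All 11 treated cells with Lyz2 reads were in sub-cluster 2, where they made up 11 of 61 cells. Leaving them out is given below where it matters.

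Ifng, Il4, Tnf and Csf2 had reads in a minority of LiNKT cells in both groups, Il2 and Il13 were at the edge of detection, and Il5 and Il17a had no reads at all. At least 1 of the 8 cytokines was read in 100 of 273 untreated cells (36.6%, 30.9 to 42.6) and in 84 of 251 treated cells (33.5%, 27.7 to 39.7). Summed over cells and divided by exon length, the order in untreated cells was Ifng (105 CPM per kb), Tnf (76.8), Il4 (25.7), Csf2 (11), Il13 (0.240) and Il2 (0.132). In treated cells it was Ifng (148 CPM per kb), Il4 (59.0), Tnf (33.0), Csf2 (12.1) and Il2 (3.13). The cell identifiers carry a 1 or a 2, read here as the sequencing lane, although no label says what this number stands for. It separates different cells (184 and 89 untreated, 173 and 78 treated). Neighbours in the order above were not always apart by more than the spread between these lanes. Untreated Tnf was at 50.1 CPM per kb in lane 1 and 127 in lane 2, on either side of Ifng (107 and 103). Treated Il4 (70.2 and 34.8) and Tnf (21.8 and 57.2) changed places between the lanes.

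By the 2-fold rule (log2 ratio of the summed CPM, with 1 CPM added to each, of at least 1 or at most -1), 2 of the 6 members with at least 10 reads were higher in treated cells and 1 was lower. The background is wide, since 20.1% of the 15052 genes tested were called higher and 17.2% lower, and these counts are therefore not far from what all genes gave. The median log2 ratio was 0.31 over the 6 members and 0.02 over all genes tested.

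Ifng, the gene of IFN-γ, was the most widely read member. Untreated cells held 23525 reads (136 CPM) and treated cells 28641 (192 CPM), a log2 ratio of 0.49. Its reads came from 52 untreated cells (19.0%, 14.6 to 24.2) and 53 treated cells (21.1%, 16.2 to 26.7), shares whose intervals overlap widely. When each cell was thinned to 200000 reads, the shares were 18.4% and 20.7%. In cells with a read the median was 391.5 reads in untreated and 491 in treated cells, with maxima of 1614 and 1831. The lanes did not give the same order of shares, which were 16.3% of untreated and 23.7% of treated cells in lane 1 but 24.7% and 15.4% in lane 2. The summed level was higher in treated cells in both, with 138 and 213 CPM in lane 1 and 133 and 146 CPM in lane 2.

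Il4 encodes the cytokine that drives type 2 responses and class switching in B cells. It had 5450 reads (31.6 CPM) without treatment and 10800 (72.4 CPM) after it, a log2 ratio of 1.17. The number of cells with a read was 25 in both groups (9.16%, 6.01 to 13.2, and 9.96%, 6.55 to 14.4). The median was 217 reads per untreated cell with Il4, at most 544, and 365 per treated cell, at most 1661. This order did not hold in lane 2, where the medians were 135 and 97.5 reads and 41.9% of the treated reads were in 1 cell, and over all cells of the tables the medians were 187 and 206. Median depth also differed between these cells, which had 628692 reads in all in untreated and 712460 in treated cells, and its part in the result was not tested. The log2 ratio was below the 2-fold mark in lane 2 alone (0.78) and with 10 CPM added (0.99). None of the treated cells with Il4 reads had a read on Lyz2, and without the cells with Lyz2 reads the ratio was 1.23.

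Tnf encodes an early inflammatory cytokine. Its sum was lower after treatment, with 21716 reads (126 CPM) in the untreated group and 8052 (54.0 CPM) in the treated group, a log2 ratio of -1.21 that stayed between -1.45 and -1.02 under every alternative tried. Reads were found in 19 untreated cells (6.96%, 4.24 to 10.7) and 9 treated cells (3.59%, 1.65 to 6.70), with overlapping intervals. The reads per cell had medians of 1336 and 899, with lowest values of 3 and 8, and 1 of the 9 treated cells also had reads on Lyz2. Both lanes had the same order, with 82.1 and 35.7 CPM in lane 1 and 209 and 93.7 CPM in lane 2.

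Csf2 encodes GM-CSF, a growth factor for myeloid cells. Its summed level was 8.83 CPM without treatment and 9.67 CPM with it, a log2 ratio of 0.12 that changed sign when cells were weighted equally (-0.11), when the cell with most reads was left out of each group (-0.13) and in lane 2 alone (-0.41). It was read in 11 untreated cells (4.03%, 2.03 to 7.10) and 5 treated cells (1.99%, 0.650 to 4.59). Il2, the T cell growth factor, passed the 2-fold mark with a log2 ratio of 1.99, but 532 of its 534 treated reads came from 1 cell of sub-cluster 4. The 8 untreated cells with Il2 held 26 reads in all, and 7 of them fewer than 5. Without the cell with most reads in each group the ratio was -0.08, and in lane 2 alone it was -0.04.

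Il13, Il5 and Il17a encode cytokines of type 2 and type 17 cells. Il13 had 50 reads, all in 1 untreated cell of sub-cluster 2 (0.366%, 0.00927 to 2.02), and 0 in treated cells. For Il5 and Il17a no cell of either group had a read, and a count of 0, taken as fewer than 3 cells, allows a share of up to 1.10% of cells without treatment and 1.20% with it (exact upper bounds of 1.34% and 1.46%). A gene read in fewer cells than that can be missed. SmartSeq2 libraries do not mark strand, and reads of Csf2, Il5 and Il2 cannot be told apart from those of the genes that overlap them on the other strand (Gm12223, Gm12214 and Adad1), all of which had 0 reads. Gm49751 overlaps Ifng on the same strand, so that reads may be split between them, and had 10.0 CPM without treatment and 2.09 CPM after it.

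**Figure D1:**
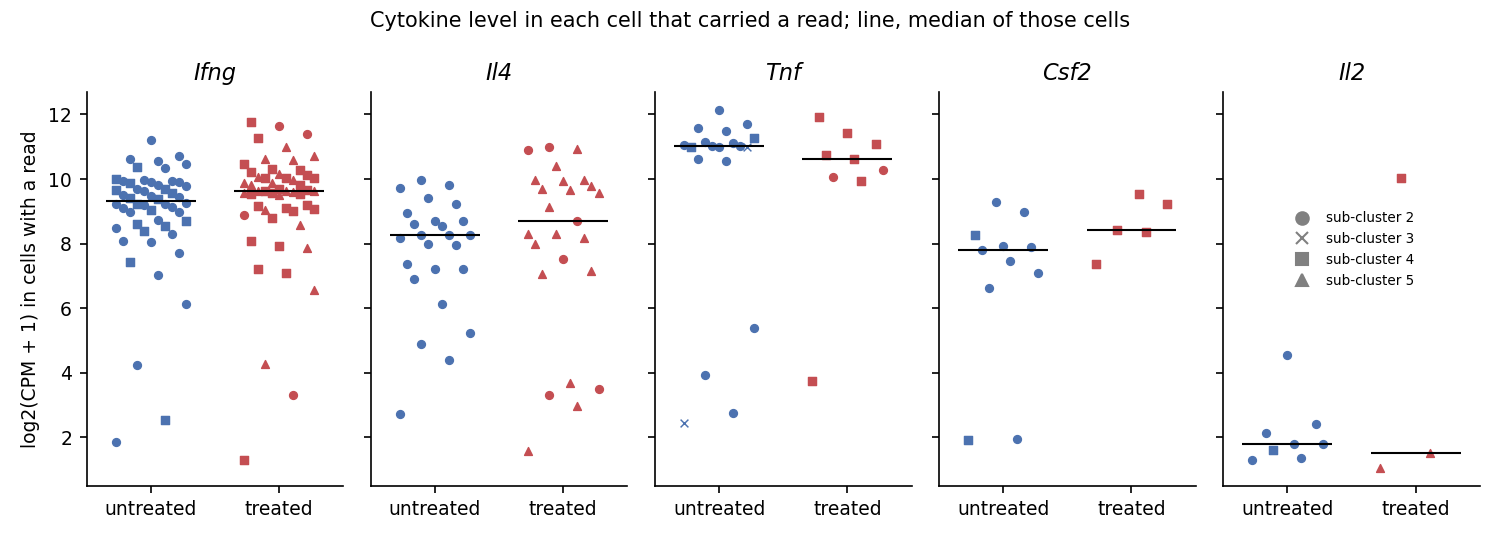
Level of 5 cytokines in each cell that carried at least 1 read, as log2(CPM + 1) on the y axis, for untreated (blue) and treated (red) cells, with marker shapes for sub-clusters and a line at the median of the cells shown. Treated Il4 reaches above the untreated cells, Tnf and Csf2 have fewer treated points, and 1 treated cell stands alone for Il2.

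The sub-clusters, which the study assigned to these cells from their expression, divided the cytokines differently. Because genes set the sub-clusters, the values are a description. Untreated cells were 228 of sub-cluster 2, 43 of sub-cluster 4 and 2 of sub-cluster 3, and treated cells 61, 133 and 0, with 57 of sub-cluster 5. Both cells of sub-cluster 3 had Tnf reads, with 1210 in 1 cell and 3 in the other.

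Il4 had reads in sub-clusters 2 and 5 only. It was read in 25 of 228 untreated cells of sub-cluster 2 (11%, 7.22 to 15.8), in 6 of 61 treated cells of sub-cluster 2 (9.84%, 3.70 to 20.2) and in 19 of 57 cells of sub-cluster 5 (33.3%, 21.4 to 47.1). In sub-cluster 4 it was read in 0 of 43 untreated and 0 of 133 treated cells, so that shares of up to 6.98% and 2.26% are allowed by the limit of 3 cells (exact upper bounds of 8.22% and 2.74%). The level of Il4 in sub-cluster 5 was 232 CPM, against 65.3 and 38.1 CPM in sub-cluster 2 of treated and untreated mice. Thinned to 200000 reads, the share in sub-cluster 5 was 32.4%.

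Ifng was read in every sub-cluster with more than 2 cells. Its shares were 15.8% of untreated sub-cluster 2 (36 of 228), 37.2% of untreated sub-cluster 4 (16 of 43), 6.56% of treated sub-cluster 2 (4 of 61), 21.1% of treated sub-cluster 4 (28 of 133) and 36.8% of sub-cluster 5 (21 of 57). Within sub-cluster 2 and within sub-cluster 4 the treated share was thus the lower, while the share over all cells was nearly the same in both groups. The intervals within sub-cluster 4 (23.0 to 53.3 untreated, 14.5 to 29.0 treated) overlap. Those of sub-cluster 2 do too (11.3 to 21.2 and 1.82 to 15.9), and 11 of its 61 treated cells carried Lyz2 and none of those carried Ifng.

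Tnf and Csf2 were not read in sub-cluster 5. For both genes the count was 0 of 57 cells, which allows a share of up to 5.26% by the limit of 3 cells (exact upper bound of 6.27%). The treated cells with Csf2 were all in sub-cluster 4 (5 of 133, 3.76%). Those with Tnf were in sub-cluster 4 (7 of 133, 5.26%) and sub-cluster 2 (2 of 61, 3.28%). All these treated shares lie below the exact upper bound for sub-cluster 5, which therefore cannot be told apart from treated sub-clusters 2 and 4 in these 2 genes. In untreated sub-cluster 2, Tnf was read in 15 of 228 cells (6.58%, 3.73 to 10.6), a share above that bound with an interval that reaches below it. The other untreated shares of sub-clusters 2 and 4 in these genes were below the bound. In sub-cluster 5 the median cell had 967 genes and 664117 reads, more than in treated sub-clusters 2 (777 genes, 535694 reads) and 4 (842 genes, 610978 reads). The part of depth in these counts was not tested. Il10 and Il21, which encode cytokines known from regulatory and helper T cells, were read in 25 and 21 of the 57 cells of sub-cluster 5 and in 0 untreated cells.

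**Figure D2:**
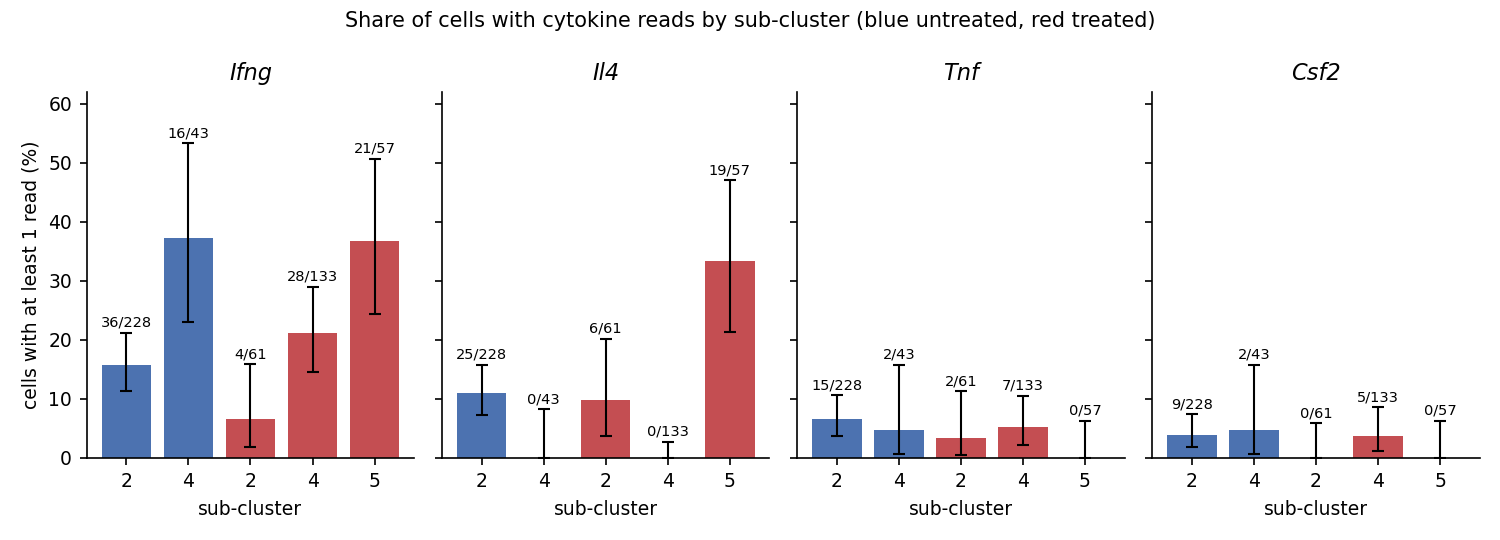
Share of cells with at least 1 read of Ifng, Il4, Tnf and Csf2 in percent (y axis) by sub-cluster (x axis), with exact binomial 95% intervals and the number of cells above each bar (blue untreated, red treated; the 2 cells of sub-cluster 3 are not drawn). Il4 is at 0 in both bars of sub-cluster 4 and at 33.3% in sub-cluster 5, where Tnf and Csf2 are at 0.

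Few cells had reads on more than 1 of the cytokines. At least 2 members were read in 12 of 273 untreated and 11 of 251 treated cells, and at least 3 in 4 untreated and 0 treated cells. The most common pair was Ifng with Il4, in 8 untreated cells where the product of the shares gives 4.76, and in 8 treated cells where it gives 5.28. All 8 untreated cells were in sub-cluster 2, and 7 of the 8 treated cells were in sub-cluster 5, where the product gives 7. Tnf shared 3 cells with Ifng and 2 with Il4 in untreated mice, where the products are 3.62 and 1.74. In treated mice Tnf shared 0 cells with either (products of 1.90 and 0.896). For Il4 with Tnf, the treated product was 0.197 within sub-cluster 2 and 0 within sub-clusters 4 and 5. Within sub-cluster 5, Il4 was read with Il10 in 10 cells (8.33 from the shares) and with Il21 in 7 (7).

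Likeness was measured for genes read in 10% or more of a group's cells, which among the members was Ifng alone, and its pattern over cells resembled that of no other gene closely. The highest Pearson correlations of log2(CPM + 1) with Ifng were 0.27 (Ik), 0.23 (Gm4596) and 0.23 (Ndufb3) over 273 untreated cells. Over 251 treated cells they were 0.27 (Gm7809), 0.26 (Gm7407) and 0.22 (ENSMUSG00000031799.10). The cells of a group share mice and lanes, and these weak values are a description.

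Other genes of the cytokine system were taken from lists, beside all genes tested, of which 20.1% were called higher and 17.2% lower. Among 14 other cytokines, 9 had at least 10 reads, of which Il10 and Il21 were called higher (from 0 to 383 and 97.5 CPM) and Lta and Tnfsf11 lower, with a median log2 ratio of -0.23. Tnfsf11 had reads in 1 cell of each group. Lta, the neighbour of Tnf that encodes lymphotoxin-α, was at 11.5 CPM in 4 untreated cells, with 62.9% of the reads in 1 of them, and at 0 in treated cells, and its call as lower was lost in lane 2 alone (log2 ratio -0.75). Ltb on the other side of Tnf, which encodes the partner chain, was read far more widely, in 67.4% of untreated and 54.2% of treated cells (1250 and 879 CPM, log2 ratio -0.51). Fasl, a death ligand, was at 360 and 431 CPM, but the order turned with the lane (361 and 527 CPM in lane 1, 357 and 222 in lane 2). Il3, Il6, Il9, Il22 and Il17f had 0 reads in both groups.

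Receptors for these cytokines made up the second list. Of 13 receptor genes 11 were tested, 4 were called higher and 4 lower (20.1% and 17.2% of all genes tested). The median was -0.25 (0.02 over all genes tested). The lower ones were Ifngr1, a chain of the IFN-γ receptor (845 to 324 CPM, log2 ratio -1.38), Il4ra, the chain shared by the IL-4 and IL-13 receptors (183 to 50.5 CPM, -1.84), Il2ra (95.6 to 32.1 CPM, -1.55) and Tnfrsf1a (112 to 41.0 CPM, -1.43, but from -2.60 to 0.95 over the alternatives). Il2ra kept its direction but reached -0.38 under one alternative. Of the higher ones, Tnfrsf1b, which encodes a TNF receptor, had a log2 ratio of 1.56 (65.5 to 195 CPM, from 1.06 to 2.19 over the alternatives). The other 3 were Ifngr2, Il13ra1 and Csf2ra, and each was read in fewer than 2% of cells. Without the cells with Lyz2 reads, Il13ra1 had a log2 ratio of 0.00 and Csf2ra one of -1.98, and all Ifngr2 reads were in 1 cell.

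Among 15 transcription factors 13 were tested, with a median of 0.04. Tbx21, which encodes T-bet, was at 463 and 432 CPM (log2 ratio -0.10), and Gata3, the type 2 regulator, at 44.3 and 58.7 CPM (0.40, from -0.75 to 1.29 over the alternatives). Maf, a factor of Il4, Il10 and Il21, was called higher, from 28.6 to 123 CPM (log2 ratio 2.06), with a read in 6.96% of cells in the untreated and 29.5% in the treated group. Irf4, read in 1.10% and 2.79% of cells, was called higher (1.58, from 0.81 to 2.12 over the alternatives, so that the call was not always kept) and Nfatc2 lower (-2.31). The last list held 8 regulators of AU-rich mRNA, proteins that act on the stability of cytokine transcripts. Of these 7 were tested, 1 (Hnrnpd, 1.01) was called higher and 0 lower (20.1% and 17.2% of all genes tested). Zfp36 was at 324 and 252 CPM and Zfp36l1 at 193 and 303 CPM. The direction for Hnrnpd depended on the setting (from -2.56 to 1.44).

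Methylation divided the members evenly. By the authors' regions of differential methylation (DMRs), 4 of the 8 genes had at least 1 DMR within 50 kb of the gene body, and these are Ifng, Il4, Il13 and Tnf. The share of all genes with a DMR of either direction was not computed, and only the counts by direction are set against all genes. A hypo-methylated region, with lower methylation in treated mice, was near 3 members (Ifng, Il4 and Il13), against 11.3% of 21938 protein-coding genes. A hyper-methylated region was also near 3 (Il4, Il13 and Tnf), against 6.93% of all genes. With at least 20 CpG cytosines per region, a hyper-methylated one was near 0 members (4.05% of all genes). Il4 and Il13 are neighbours and share all of their regions, and the 3 genes of either direction are therefore not independent. For the members without a region, the nearest one was 62.5 kb from Il5, 103 kb from Il2, 320 kb from Csf2 and 786 kb from Il17a. The fractions come without read depth, so that their precision is unknown.

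Ifng (chr10:118441046-118445892) had 3 hypo-methylated regions, all within the gene or touching its start. The first (chr10:118440997-118441385) spans the TSS and 220 bases of exon, and the authors' means were 26% in untreated and 3.89% in treated mice. Its 21 CpG cytosines, counted on both strands, ranged from 8% to 42% in untreated and from 0% to 12% in treated mice, and all 21 were lower in treated mice. In the printed promoter, the CpG at position -38 from the TSS was at 25% on the plus strand in untreated and 0% in treated mice. The second region (chr10:118441386-118441727, first intron) follows without a gap, with means of 48.3% and 7.77% over 10 cytosines. The last (chr10:118443370-118443848, intron) was mostly methylated in untreated mice, at 86.6%, and at 42.9% in treated mice, over 19 cytosines. Untreated methylation was thus lowest at the start of the gene and higher further in. Every CpG cytosine listed in the 3 regions was lower in treated mice, which the calling of the regions largely gives. Both intronic regions also overlap exons of Gm49751.

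At the type 2 cytokine locus (Il4 chr11:53602982-53618669, Il13 chr11:53631324-53634702, both on the minus strand) the 3 regions did not share a direction. The one between the genes, printed above, lies 8.29 kb from Il4 and 4.07 kb from Il13. It was already low in untreated mice (authors' mean 17.5%) and lower in treated mice (4.29%), with all 22 cytosines lower. The region in introns of Rad50 (chr11:53657179-53658276, 22.5 kb from Il13) went from 76.5% to 46.7% over 33 cytosines, all of them lower. Rad50 itself, a DNA repair gene, had 29.5 CPM without treatment and 35.1 CPM after it. The region in Kif3a (chr11:53598153-53598503, 4.48 kb beyond the 3′ end of Il4) was higher in treated mice, with means of 38.8% and 87.5%, with all 12 cytosines higher. It overlaps 69 bases of exon of Kif3a, a motor protein gene that was read in 2.20% and 1.20% of cells, with 3.84 and 11.8 CPM (log2 ratio 1.41, from -0.13 to 1.71 over the alternatives). Compared with the other regions of the same direction, the difference at the Kif3a region was larger than 93.4% of them and that between Il4 and Il13 larger than 3.53%.

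The region near Tnf (chr17:35222206-35222867) lies 20.2 kb upstream, in introns of Nfkbil1 and of Gm16181, and the genes between it and Tnf include Lta, 16.9 kb away. It was nearly unmethylated in untreated mice, at 9.53%, and at 53.6% in treated mice, with all 19 cytosines higher. Nfkbil1 was at 17.9 and 19.4 CPM. No region overlapped the body of Tnf, Il4 or Il13.

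**Figure D3:**
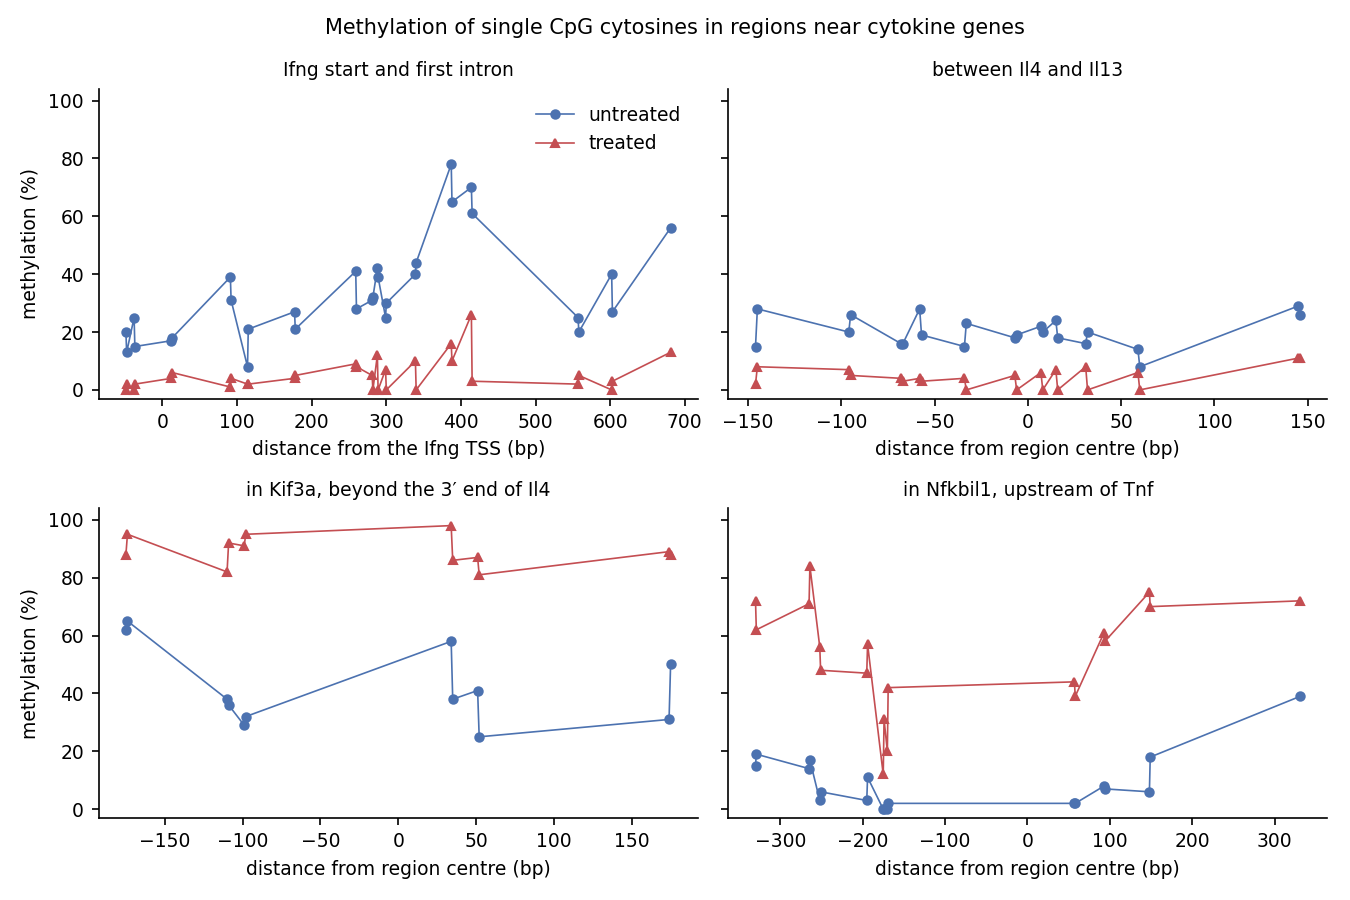
Methylation of single CpG cytosines in percent (y axis) in untreated (blue circles) and treated mice (red triangles), against distance in bases from the Ifng TSS or from the centre of the region (x axis), with 1 merged value per group. Treated values are below the untreated ones at Ifng and between Il4 and Il13, and above them in Kif3a and Nfkbil1.

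The chromatin fragments of both multiome samples are in 1 file, with barcodes that end in 1 or 2. The sources used here do not say which ending is which group, so that the endings are compared only as such and nothing is said about treatment. With at least 1000 fragments, 8565 barcodes of ending 1 and 7237 of ending 2 were used, with medians of 7104 and 8591 fragments, and 100 barcode sequences occurred under both endings. Each fragment end is an insertion, and insertions were scaled to 1000000 per ending (insertion CPM). In both endings a similar part lay within 1 kb of a TSS (43.5% and 42.9%).

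Over the gene body plus 2 kb upstream, insertions were above the median of all genes at Tnf, Ifng, Csf2 and Il4, and also at Il13 and Il2, which had little RNA, and below it at Il5 and Il17a, which had none. Per kb, Tnf had 12.8 and 12.5 insertion CPM in endings 1 and 2, Ifng 10.1 and 10.5, Csf2 7.19 and 4.73, Il4 3.61 and 3.42, and Il13 3.25 and 3.29. Il2 had 1.52 and 1.29, Il5 0.95 and 0.319, and Il17a 0.0879 and 0.133, against a median of 0.97 over the 18852 protein-coding genes tested. Il13 was thus near Il4 per kb, although Il13 RNA was read in 1 cell and Il4 RNA in 25 cells of each group. This likeness depended on the measure, since the Il4 stretch has 17688 bases and that of Il13 5379. Within 2 kb of the TSS, Il4 had 18.9 and 18.1 insertion CPM and Il13 11.8 and 11.4. At least 1 fragment end lay at Ifng in 39.0% and 43.3% of barcodes, at Il13 in 14.6% and 16.3%, and at Il17a in 0.327% and 0.484%. Thinned to 5000 fragments, the shares were 29.1% and 29.8% for Ifng, and 9.12% and 9.30% for Il13.

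Between the endings, 1 of the 8 members was at least 2-fold lower in ending 2 (0.716% of all genes), and 0 were at least 2-fold higher (3.10% of all genes). The lower one was Il5, with 6.0 insertion CPM (5.63 to 6.39) in ending 1 and 2.01 (1.79 to 2.25) in ending 2, a ratio of 0.335. Its 976 and 301 insertions came from 420 and 133 barcodes. Because the 2 ends of a fragment are not independent counts, these intervals are too narrow. The open site of Il5 was small and was centred at -1.0 kb from the TSS, where the 500-base window had 523 insertions in ending 1 and 93 in ending 2 (ratio of 0.193). A fragment end at Il5 was found in 4.90% and 1.84% of barcodes (2.87% and 0.931% when thinned). Csf2 came next, with 31.6 and 20.8 insertion CPM (0.657), a ratio lower than that of all but 2.60% of genes. In the window just inside Csf2 the values were 14.8 and 7.82 (0.527). Il2 had a ratio of 0.849.

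Ifng (1.04), Il13 (1.01), Tnf (0.973) and Il4 (0.946) were nearly equal between the endings. Il17a had a ratio of 1.51, but on 80 and 111 insertions only, and 2.09 with barcodes of at least 5000 fragments. At its start, the window around the TSS held 10 and 44 insertions. Barcodes of ending 2 were also the deeper ones. Thinned to 5000 fragments, a fragment end at Il17a was found in 0.131% of barcodes of ending 1 and 0.291% of ending 2. The part of depth in the Il17a ratio was not tested.

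Equal sums over a gene can hide sites that differ. Around Ifng the most open 500-base window was centred at -21.8 kb from the TSS, near the place of a well studied enhancer of Ifng, and had 43.2 insertion CPM in ending 1 and 31.9 in ending 2 (ratio of 0.738). The windows at the promoter had 29.0 and 27.1 (0.932) and 20.9 and 22.4 (1.07). At -5.3 kb the values were 11 and 16 (1.45), and at 29.7 kb downstream they were 8.20 and 18.5 (2.26). Over all windows with at least 100 insertions, 6.87% were at least 2-fold higher and 5.12% at least 2-fold lower in ending 2.

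At the type 2 locus the window with the highest mean of both endings within 50 kb of Il4 or Il13 was at the edge of the hypo-methylated region between them, with 17 insertion CPM in ending 1 and 26.4 in ending 2 (1.55). In ending 1 the start of Kif3a was slightly higher (17.5, against 16.1 in ending 2). The highest window inside Il4, 8.9 kb from its TSS, had 13.0 and 14.2. Among windows within 50 kb of Il13, those inside Rad50 with the highest means had 12.7 and 9.48, and 9.74 and 11, while the window at the start of Rad50, further away, had 21.7 and 21. For Il2, the window with the highest mean was at -26.3 kb (5.74 and 6.54), above the promoter window (4.10 and 3.37). These windows were chosen for being the highest, and their levels are a description.

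**Figure D4:**
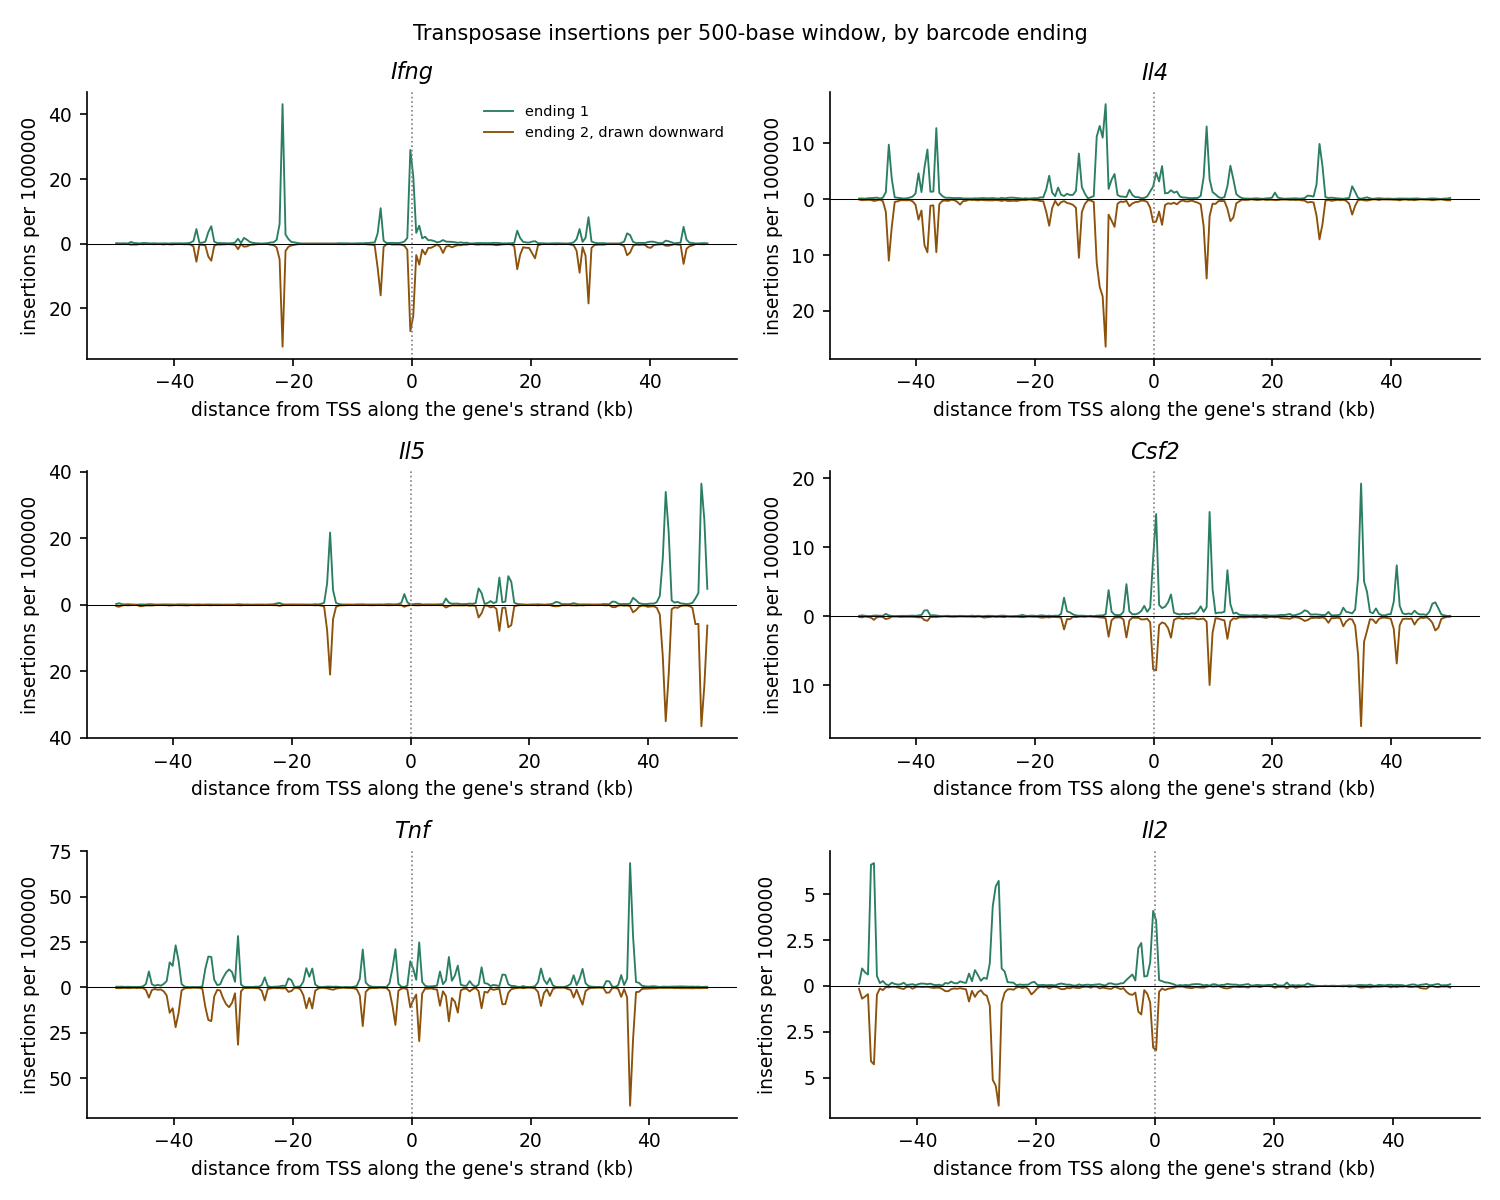
Insertion CPM in windows of 500 bases (y axis; ending 1 upward, ending 2 drawn downward) against distance from the TSS in kb along the strand of each gene (x axis). Both endings share the open sites of each locus, and the sites at -8.1 kb from the Il4 TSS and at 29.7 kb from the Ifng TSS are taller in ending 2, while those at Csf2 and just upstream of Il5 are taller in ending 1.

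The 7 methylation regions were then read in the chromatin data. At all 5 regions that were hypo-methylated in treated mice the insertions were higher in ending 2, and at both hyper-methylated regions they were lower in ending 2. The 3 Ifng regions had ratios of 1.06 (22.1 and 23.5 insertion CPM), 1.21 and 1.36, the region between Il4 and Il13 one of 1.75 (8.59 and 15.1), and the Rad50 region one of 1.37 (3.86 and 5.29). The Nfkbil1 region near Tnf had a ratio of 0.492 (8.01 and 3.94). The Kif3a region was the furthest apart, with 142 insertions in ending 1 and 18 in ending 2, a ratio of 0.138. This direction was not particular to the cytokine loci. Of the 1384 hypo-methylated regions in the genome with at least 100 insertions 95.5% were higher in ending 2, with a median ratio of 4.25, and of the 771 such hyper-methylated regions 91.1% were lower, with a median of 0.58. Each of the 5 hypo-methylated regions near the cytokines had a ratio below that median.

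**Figure D5:**
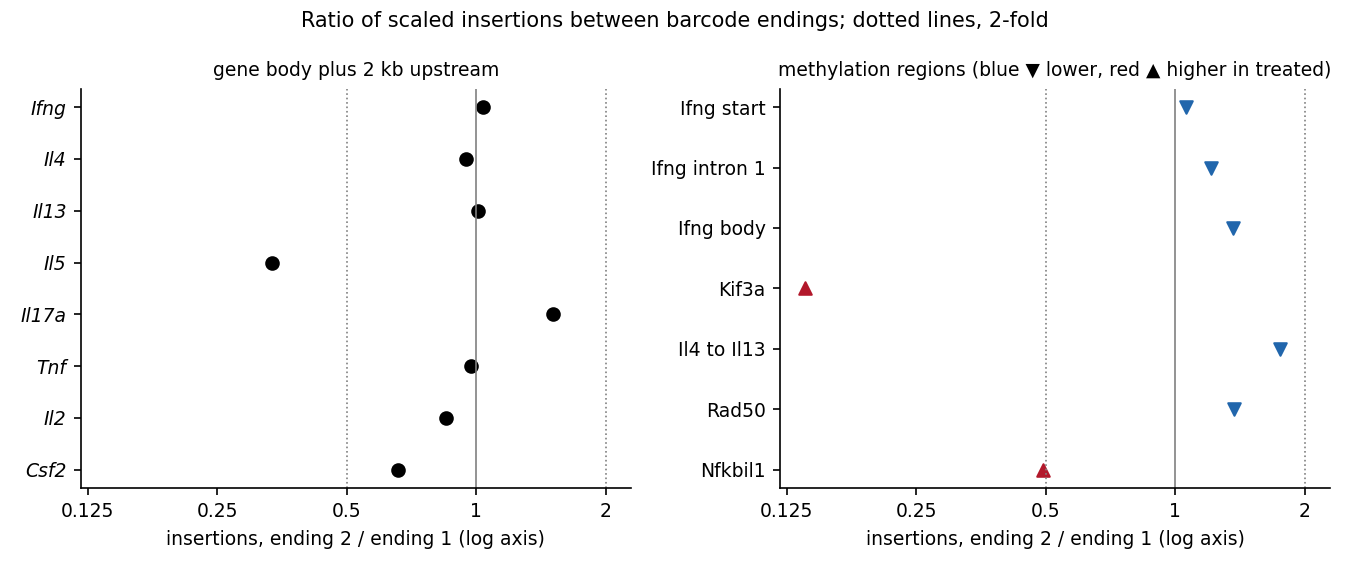
Ratio of scaled insertions in ending 2 over ending 1 (x axis, log scale; dotted lines at 2-fold) for the 8 genes with 2 kb upstream (left) and for the 7 methylation regions (right, blue hypo-methylated and red hyper-methylated in treated mice). Il5 (0.335) and the Kif3a region (0.138) stand to the left, and 4 of the genes lie close to 1.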

How the data were processed

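SmartSeq2 counts per gene and cell, deposited by the authors as unnormalized counts, came from reads aligned with STAR to GRCm38. The cell list of the study gave each cell's sub-cluster. Methylation was deposited as a fraction per cytosine within DMRs, after alignment with BSMAP to mm10, and the authors called DMRs with metilene, whose table holds mean methylation, a difference and a q-value per DMR. The q-value served only as a threshold of 0.01 in an alternative, and the authors' difference was not used. Fragments came from Cell Ranger ARC, in a file the authors deposited for both multiome samples, with a count of read pairs per fragment that was not used.

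Counts were summed over the cells with a sub-cluster and scaled to CPM (totals of 172559865 and 149084200 counts). The log2 ratio took 1 CPM added to each sum, genes needed at least 10 summed counts, and 2-fold was called. With 1 sample per group no test was run. The 8 genes and the lists were chosen with earlier results of these data known. Named genes were the 8 members, the genes at their DMRs and the members of the fixed lists, and for likeness the 3 genes with the highest r in each group. The values of 1 listed gene are not reported here. No doublet caller was run. CPM, thinned shares and ratios were checked on simulated data. Gene positions are those of GENCODE M21 on GRCm38, and sequences are from RefSeq (GRCm38.p6), where all 8 genes were found by name. For Csf2 the RefSeq start lies upstream of the GENCODE start. Motifs (GGAAA for NFAT, TGANTCA for AP-1, AGATAA for GATA factors, TCACACC for T-bet, and TATAAA as TATA box) were searched on both strands of each promoter, each on its own, so that overlapping matches of different motifs count for both. TCACACC, part of the site of T-bet, was in none of the 8 promoters (3.98% of all promoters). TATAAA was found in those of Ifng, Il13, Il17a, Tnf and Il2 (13.6%). Scripts used Python 3.11.15, numpy 2.4.6, pandas 2.3.3, scipy 1.17.1, and edgeR 4.0.16 in R 4.3.3 for TMM factors alone. Alternatives were other cells, scalings, priors, minimums, distances, CpG and fragment limits, each lane alone, and leaving out cells with Lyz2 reads, which was chosen after seeing the data.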

Additional observations from a re-analysis of the deposited data

How the results depend on the processing

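Of 226 values recomputed under alternatives for 38 results, 204 were labelled the same, 20 moved and 2 reversed. Reversed was used only for members past 2-fold, so that the changes of sign of Csf2 count as moved. A share labelled the same could still change, as for untreated Il2 (2.93%, and 1.53% when thinned). Some values could not change, such as ratios without a minimum of counts or shares of 0 in subsets of cells. The tally is therefore not a measure of robustness. The number of members at least 2-fold higher in treated SmartSeq2 cells was 2, and it was 0 with 10 CPM added, 1 without the cell with most reads on the gene and 0 in lane 2 alone. Il2 reversed without that cell (-0.08) and in lane 2 alone (-0.04). With at least 20 CpG cytosines per DMR, counted on both strands, 0 members had a hyper-methylated DMR (4.05% of all genes), in place of 3 (6.93%). With at least 5000 fragments per barcode, 1 member (Il17a) was at least 2-fold higher in ending 2 (3.03% of all genes), in place of 0 (3.10%). Apart from the cell that decides Il2, the cause of these changes was not tested. No paired analysis was possible because each group is 1 sample. Mice are not separated, so that the spread between mice is unknown, and the depth of the methylation values is unknown.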

Other observations

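Over all treated cells, Il4 was read with Il10 in 14 of the 25 cells with Il4, where the product of the shares gives 3.19, and with Il21 in 8, where it gives 2.59. Within sub-cluster 5, Il4 was read with Il10 in 10 cells (8.33 from the shares), and within treated sub-cluster 2 in 4 of the 6 cells with Il4 (0.590 from the shares). Tnf was read with Il10 in 0 treated cells (1.15 from the shares). Within sub-clusters the shares give 0.197 in sub-cluster 2, 0.0526 in sub-cluster 4 and 0 in sub-cluster 5, so that this 0 says little. At least 1 of the 8 cytokines was read in 35 of 57 cells of sub-cluster 5 (61.4%, 47.6 to 74.0). In untreated mice it was 20 of 43 cells of sub-cluster 4 (46.5%, 31.2 to 62.3), an interval that overlaps the former, and 78 of 228 cells of sub-cluster 2 (34.2%, 28.1 to 40.8). In treated mice it was 38 of 133 cells of sub-cluster 4 (28.6%, 21.1 to 37.0) and 11 of 61 cells of sub-cluster 2 (18.0%, 9.36 to 30.0).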
